A study of Mus musculus with 6 samples.

Results

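The genes described here lie on the distal part of mouse chromosome 14, from position 26413168 (GRCm38) to the end of the last member at 122984035, a stretch of 96.6 Mb. Members were chosen by position and by level: every gene that starts at or after that position and averages at least 5 CPM, the counts scaled to a common library total, over the 6 libraries, with 18 genes left out by name. This gave 286 members of 49671 genes counted, 280 of them protein coding. Of 1429 annotated genes in the stretch, 1134 were below 5 CPM, and 758 of these had no read in any library. The stretch was chosen because the ratio of Cre to Flp cultures is raised along it in clones 7 and 21, so the higher level of the members in those 2 clones is how they were found. All ratios below are therefore given as a description, with no test of the members as a set. The question is how the single genes differ within the stretch: which stand at the regional ratio, which exceed it and which do not share it.

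The cells were induced renal epithelial cells (iRECs) of the strain B6.129S4-Pkd1tm2Ggg/J, in which exons of Pkd1 are flanked by loxP sites. From each of clones 4, 7 and 21, a culture transduced with Cre, labelled Pkd1 -/-, was compared with a culture of the same clone transduced with Flp and labelled wild type (Pkd1 fl/fl), giving 3 Cre and 3 Flp libraries of total RNA. All 6 cultures carried the floxed strain background and were grown to confluency in the same medium with 10% serum at 5% CO2. Each clone gave 1 library per group, and the labels do not say whether the clones came from separate animals.

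Induced renal epithelial cells are fibroblasts turned into tubule-like cells by a set of transcription factors. Pkd1 encodes polycystin-1, a large membrane protein of renal epithelium, and its loss causes most cases of autosomal dominant polycystic kidney disease. Distal chromosome 14 is no functional unit: it carries single subunits of many complexes whose other subunits are encoded on other chromosomes, beside housekeeping, mitotic, signalling and adhesion genes. Subunit proteins of a stable complex are usually made in fixed proportions. Here the RNA of partner subunits serves as a reference for a gene's level, and no protein was measured.

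Total counts per library ranged from 25196120 to 46918341, and a count of 0 allowed at most 0.0632 to 0.121 CPM, which covers counting error only. Pkd1, the targeted gene (chromosome 17), averaged 122 ± 20.6 CPM over the 3 Cre libraries and 198 ± 31.5 CPM over the 3 Flp libraries (SD, n = 3), with Cre lower than Flp within each clone. The 7 kidney epithelial markers summed to 2696 to 3931 CPM in each library, with only Krt7 near 0. Sums over 7 fibroblast markers were 4.61 to 29.4 CPM, over 3 endothelial markers 0.24 to 1.8 CPM, over 3 blood markers 4.42 to 6.74 CPM and over 3 muscle markers 0.174 to 0.847 CPM. Thy1, Cdh5, Myog and Myod1 had no read.

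The members were higher in Cre than in Flp by a median log2 ratio of 0.84 in clone 7 (1.79-fold) and 0.76 in clone 21 (1.69-fold), against 0.08 in clone 4 (1.06-fold). The middle 50% of members lay between 0.60 and 1.06 in clone 7, between 0.61 and 0.96 in clone 21 and between -0.11 and 0.27 in clone 4. For the 10447 genes of at least 5 CPM outside the stretch, the medians were -0.04, 0.03 and -0.01 in clones 4, 7 and 21. Exons of 124 members overlap those of another annotated gene, and without these members the medians were 0.06, 0.87 and 0.76 in clones 4, 7 and 21. Set against the mean of the clone 4 pair on a log2(CPM + 0.5) scale, the members' median level was 0.86 in Cre of clone 7 and 0.77 in Cre of clone 21. In Flp it was 0.03 in clone 7 and 0.00 in clone 21. The 4 libraries other than Cre of clones 7 and 21 thus had nearly the same median level. Cre of clones 7 and 21 were the 2 highest of the 6 libraries for 264 members, or 92.3%, against 11.4% of genes outside the stretch.

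**Figure D1:**
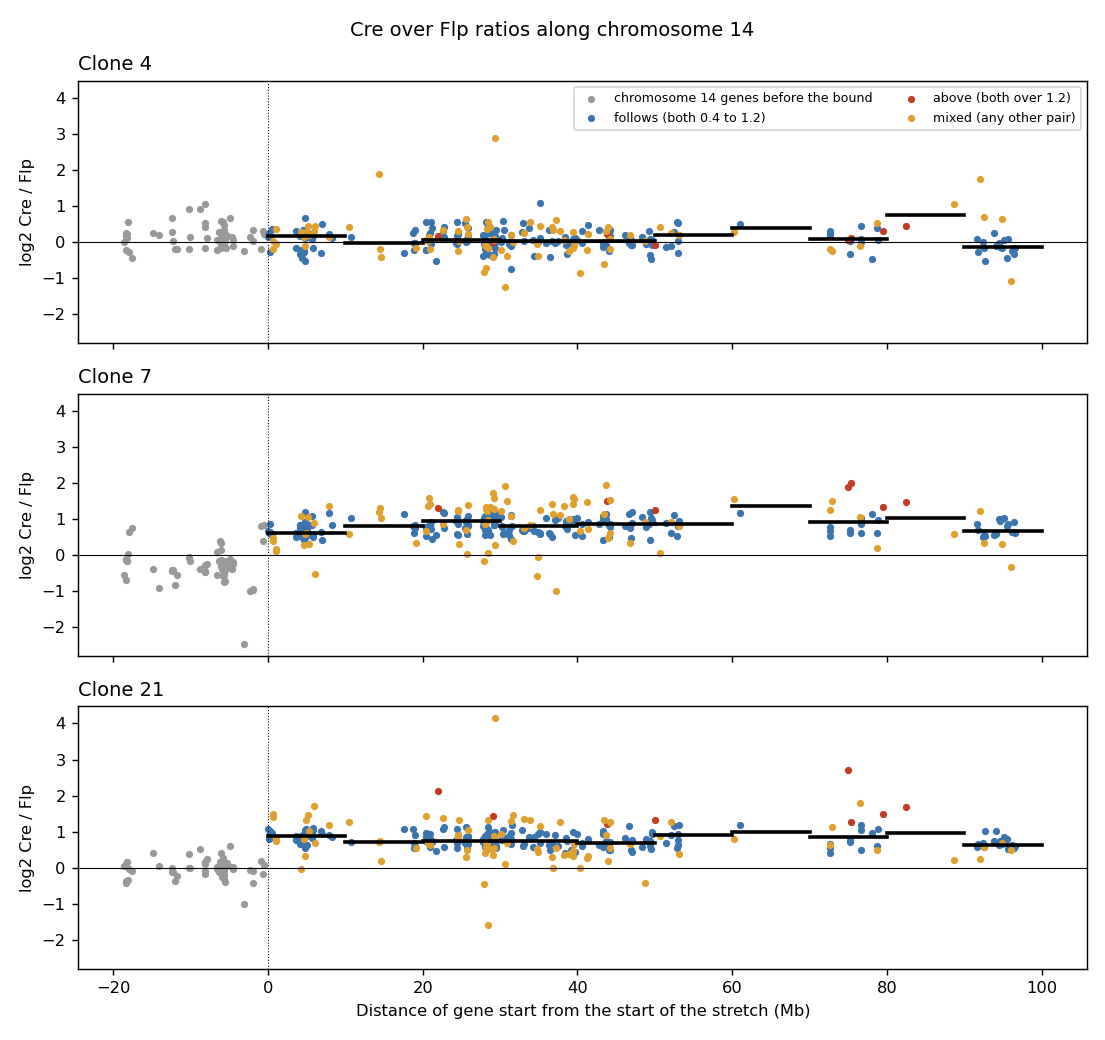
Log2 ratio of Cre to Flp (y axis) of each gene on chromosome 14 against the distance of its start from the start of the stretch in Mb (x axis), 1 panel per clone. Grey points are the 59 genes before the bound, coloured points the 286 members by class, and black bars the median of each 10 Mb bin. The bars lie between -0.13 and 0.39 in clone 4, except in a bin of 2 genes at 0.76, and between 0.61 and 1.36 in clone 7 and 0.64 and 0.99 in clone 21.

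To sort single genes, a member was said to be in the regional range when its log2 ratio lay between 0.4 and 1.2 in both clones 7 and 21, above it when both ratios exceeded 1.2, flat when both were within 0.4 of 0, and lower when both were at -0.4 or less. All other members were called mixed. In the regional range stood 195 members (68.2%), against 1.95% of genes outside the stretch. Above it stood 8 members (2.8%), against 0.354%. These bounds lie around the members' medians, and genes centred on 0 seldom reach them. On bounds around 0, 65.7% of genes outside were flat and 2.9% had both ratios at 0.4 or more. Those shares are near the members' 68.2% and 2.8%, so by these classes the scatter about the centre was similar. No member was flat in both clones, where 65.7% of genes outside were, and none was lower in both, where 3.61% were. Of the 83 mixed members, 41 exceeded 1.2 in 1 clone and lay in the range in the other, 25 of them with clone 7 the higher. Another 40 were under 0.4 in 1 clone only, 20 in each clone. The last 2, Slc7a7 and Slc22a17, did not reach 0.4 in either clone.

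Both ratios were at least 0.4 in 244 members (85.3%), against 2.9% outside, and both were above 0 in 276 members (96.5%), against 30.4%. One or both ratios were negative in 10 members, against 69.6% outside. These shares describe the choice of the stretch and are not evidence for it.

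**Figure D2:**
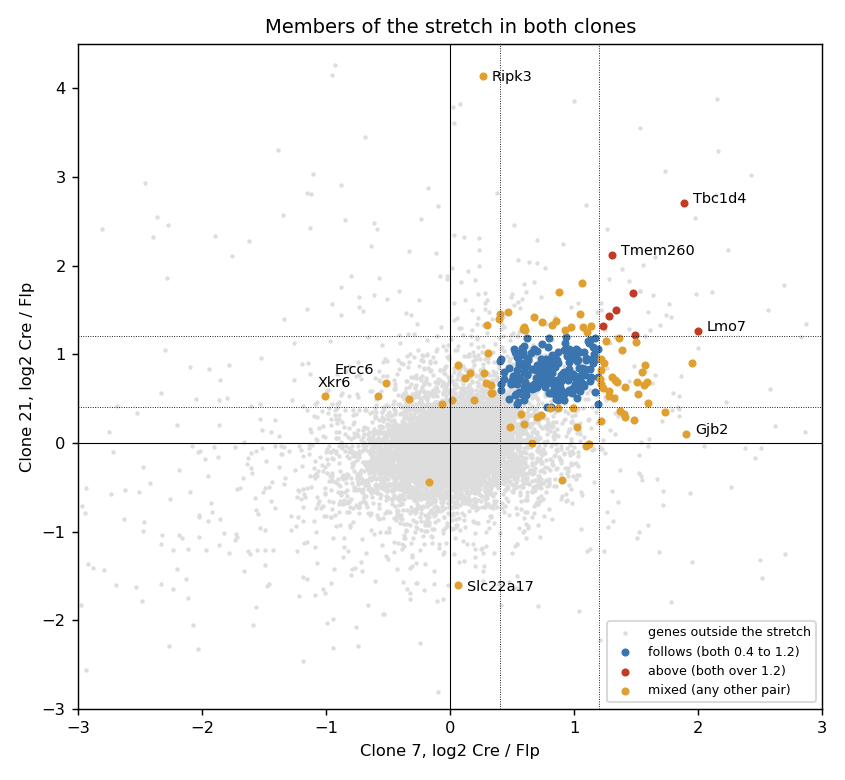
Log2 ratio of Cre to Flp in clone 7 (x axis) and in clone 21 (y axis) for the 286 members, coloured by class, and for genes of at least 5 CPM outside the stretch in grey; the axes stop at -3 and 3 in clone 7 and at -3 and 4.5 in clone 21, which leaves out some grey points and no member. Dotted lines mark 0.4 and 1.2. Most members form 1 compact cloud with 195 in the central square, while Ripk3, Tbc1d4, Lmo7, Gjb2, Xkr6, Ercc6 and Slc22a17 stand away from it.

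The ratios of single members spread more widely than counting error. Their SD was 0.38 in clone 7 and 0.42 in clone 21, while the median counting error of a ratio was 0.06 in either clone. In clone 4, where the median was near 0, the SD was 0.38 as well. Outside the stretch the SDs were 0.37, 0.55 and 0.48 in clones 4, 7 and 21. Across the 286 members, which share libraries and depth, the ratio in clone 7 and the ratio in clone 21 had a Spearman correlation of 0.09 and a Pearson correlation of 0.13. Across the 10447 genes outside the stretch the same correlations were 0.24 and 0.25.

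Cog3, Abhd4, Tkt, Wbp4 and Ubac2 were the members nearest to both regional medians. Cog3, a subunit of the COG complex that tethers vesicles at the Golgi (chromosome 14, 75702350 to 75754517), was at 28.9 CPM in Flp and 52.5 CPM in Cre of clone 7, 31.2 and 51.1 CPM in clone 21, and 25.5 and 31.7 CPM in clone 4. Its 2 high libraries were Cre of clones 7 and 21, and the other 4 lay between 25.5 and 31.7 CPM. Abhd4, a lipase of N-acyl phospholipids, was at 115 and 203 CPM in Flp and Cre of clone 7, 119 and 206 CPM in clone 21, and 113 and 130 CPM in clone 4. Its levels in the 3 Flp libraries differed by only a few CPM.

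Tkt, the transketolase of the pentose phosphate pathway, and Ubac2, a membrane protein of the endoplasmic reticulum, had the regional ratio in clones 7 and 21 but were lower in Cre of clone 4. Tkt stood at 178 CPM in Flp and 142 CPM in Cre of clone 4, a log2 ratio of -0.33 (counting error 0.03). Ubac2 stood at 44.8 and 32.8 CPM there, a ratio of -0.45 (counting error 0.06). For both genes the Flp library of clone 4 was the highest of the 3 Flp libraries.

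Among the 8 members with the most reads, which reflects transcript length as well as abundance, 6 were in the regional range. Nisch, the imidazoline receptor candidate nischarin, was at 860 and 1193 CPM in Flp and Cre of clone 7, 641 and 1149 CPM in clone 21, and 726 and 790 CPM in clone 4. Ctsb, the lysosomal protease cathepsin B, had ratios of 0.49 and 0.68 in clones 7 and 21. Exons of Ctsb, and of Lrp10 below, overlap those of neighbours whose reads could not be told apart. The membrane protein Itm2b had 0.47 and 0.49, the matrix protease Mmp14 had 0.56 and 0.73, the receptor Lrp10 had 0.70 and 0.87, and the mitochondrial protein Ghitm had 1.02 and 0.70. The counting errors of these ratios were at most 0.03, below the differences among most of them. Tsc22d1 and Clu, the other 2, stood higher and are described with the outlying genes.

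**Figure D3:**
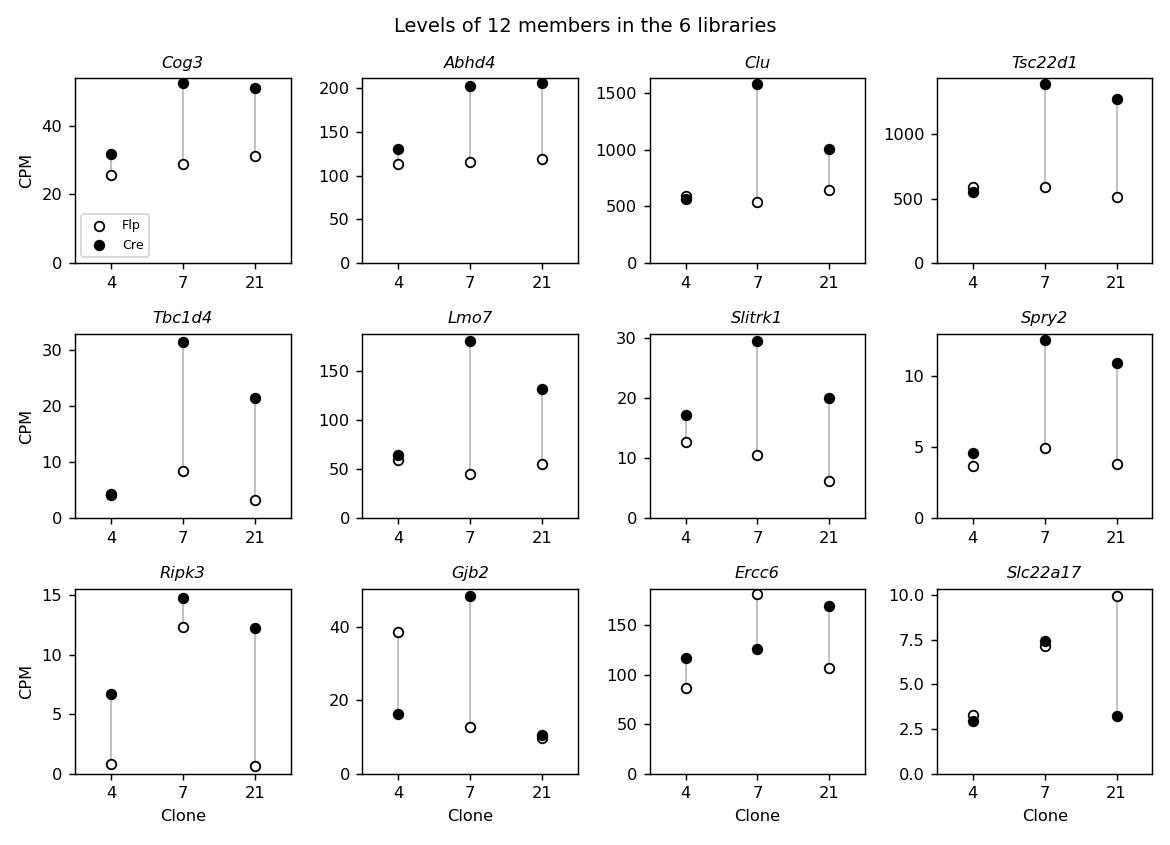
Level in CPM (y axis, from 0, scaled per gene) of 12 members in the 6 libraries, by clone (x axis), with Flp as open and Cre as filled circles joined by a line; each circle is 1 library. Cog3 and Abhd4 show the regional pattern, Tsc22d1, Tbc1d4, Lmo7, Slitrk1 and Spry2 exceed it, and Clu, Ripk3, Gjb2, Ercc6 and Slc22a17 differ between clones.

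The 8 members above the range in both clones were Tbc1d4, Tmem260, Lmo7, Slitrk1, Spry2, Dhrs4, Sorbs3 and Tsc22d1. Tbc1d4, a GTPase-activating protein of Rab proteins also known as AS160 and a brake on glucose transporter traffic (chromosome 14, 101442360 to 101609191), was at 8.52 CPM in Flp and 31.6 CPM in Cre of clone 7, 3.26 and 21.6 CPM in clone 21, and 4.24 and 4.42 CPM in clone 4. Its log2 ratios were 1.88 and 2.70 in clones 7 and 21 (counting errors 0.09 and 0.16) and 0.06 in clone 4. Lmo7, an adaptor of cell junctions and actin that starts close to Tbc1d4 (101729957 to 101934710), was at 45.3 and 181 CPM in Flp and Cre of clone 7, 54.9 and 131 CPM in clone 21, and 59.0 and 64.0 CPM in clone 4. The Flp libraries of Lmo7 were close to each other, and only Cre of clones 7 and 21 stood apart.

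Slitrk1, a synaptic adhesion protein, stood at 10.6 and 29.5 CPM in Flp and Cre of clone 7, 6.19 and 20.1 CPM in clone 21, and 12.7 and 17.2 CPM in clone 4. Spry2, an inhibitor of receptor tyrosine kinase signalling, stood at 4.92 and 12.5 CPM in clone 7, 3.83 and 10.9 CPM in clone 21, and 3.71 and 4.61 CPM in clone 4. Both genes were somewhat higher in Cre of clone 4 too, with ratios of 0.44 and 0.31. Tsc22d1, a leucine zipper protein of the TGF-beta response, was at 592 and 1392 CPM in clone 7, 511 and 1278 CPM in clone 21, and 588 and 552 CPM in clone 4.

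Tmem260, an O-mannosyltransferase of the secretory pathway, had ratios of 1.31 and 2.12 in clones 7 and 21, and its Flp library of clone 21 was the lowest of the 6 at 8.59 CPM. Its exons overlap those of another annotated gene. The carbonyl reductase Dhrs4 had 1.28 and 1.43, and the vinculin-binding adaptor Sorbs3 had 1.49 and 1.22. Tbc1d4, Lmo7 and Spry2 lie in the same 10 Mb bin of the stretch and Slitrk1 in the next, and Tmem260 and Dhrs4 share another bin. The 8 genes had a median level of 14.8 CPM in clone 4, against 29.9 CPM for the members in the regional range. How many members fall above the range depends on the bound: 4 with bounds of 0.3 and 1.3, and 17 with bounds of 0.5 and 1.1.

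Promoters are shown for 4 of these genes because they span the range of ratios: Tbc1d4 and Lmo7 from above it, Cog3 from its centre, and Slc22a17, which is described with the genes that lack the regional ratio. Each run is the 250 bases before the gene's start from RefSeq (GRCm38.p6), printed 5′ to 3′ on the gene's strand, with matches to a searched motif in capitals. All capitals below are matches to the GC box on either strand. The regions are chr14:101609192-101609441 (minus strand) for Tbc1d4, chr14:101729678-101729927 (plus) for Lmo7, chr14:75754494-75754743 (minus) for Cog3 and chr14:54913133-54913382 (minus) for Slc22a17.
Tbc1d4: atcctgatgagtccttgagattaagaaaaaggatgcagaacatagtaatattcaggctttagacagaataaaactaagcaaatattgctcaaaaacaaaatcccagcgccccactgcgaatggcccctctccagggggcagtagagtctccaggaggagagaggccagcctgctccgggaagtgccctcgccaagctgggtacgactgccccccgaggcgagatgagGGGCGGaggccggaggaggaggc
Lmo7: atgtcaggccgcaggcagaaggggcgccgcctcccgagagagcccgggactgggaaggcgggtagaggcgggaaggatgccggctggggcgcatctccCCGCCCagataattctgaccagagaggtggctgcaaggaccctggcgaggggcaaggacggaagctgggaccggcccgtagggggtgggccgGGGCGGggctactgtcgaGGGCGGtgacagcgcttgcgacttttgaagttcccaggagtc
Cog3: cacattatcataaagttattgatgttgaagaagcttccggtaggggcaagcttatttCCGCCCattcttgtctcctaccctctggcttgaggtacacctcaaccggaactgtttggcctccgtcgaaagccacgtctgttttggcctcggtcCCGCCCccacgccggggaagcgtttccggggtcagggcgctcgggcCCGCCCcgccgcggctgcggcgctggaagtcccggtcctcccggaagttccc
Slc22a17: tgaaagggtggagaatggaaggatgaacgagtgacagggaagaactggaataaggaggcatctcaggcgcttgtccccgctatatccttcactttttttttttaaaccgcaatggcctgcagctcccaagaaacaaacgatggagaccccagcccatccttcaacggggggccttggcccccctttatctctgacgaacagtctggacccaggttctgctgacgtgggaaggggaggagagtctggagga
A promoter entry was found for 213 of the 286 members. The motifs searched on both strands were the TATA box as TATAAA, the NF-Y box as CCAAT, the GC box as GGGCGG, the AP-1 site as TGANTCA, the E-box as CACGTG and the cyclic AMP element as TGACGTCA. None of them contains another. GGGCGG was present before 62.4% of members, against 40.5% of all 19780 genes with an entry, and TATAAA before 6.1% against 12%. All genes with an entry include silent ones, which the members do not. Within the members GGGCGG was present before 98 of 150 genes in the regional range, 3 of 7 above it and 32 of 56 mixed ones. Tbc1d4 had 1 GC box and Lmo7 and Cog3 had 3 each, and none of the motifs was found in the Slc22a17 window.

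Of the mixed members, Ripk3 had the highest ratio of all. Ripk3, the kinase that drives necroptosis (chromosome 14, 55784995 to 55788865), was at 0.638 CPM in Flp and 12.2 CPM in Cre of clone 21, 0.847 and 6.67 CPM in clone 4, and 12.3 and 14.8 CPM in clone 7. Its log2 ratios were 4.14 in clone 21 (counting error 0.35) and 2.89 in clone 4 (counting error 0.33) but 0.26 in clone 7. The Flp library of clone 7 stood with the Cre libraries, and the other 2 Flp libraries were under 1 CPM. Ripk3 therefore differed from the regional pattern in clone 4, where the region as a whole had a median ratio of 0.08.

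Clu, the secreted chaperone clusterin and a marker of injured tubule, was at 534 and 1575 CPM in Flp and Cre of clone 7, 640 and 1007 CPM in clone 21, and 594 and 562 CPM in clone 4. Its ratio of 0.65 in clone 21 was in the regional range, while that of 1.56 in clone 7 was above it. Gjb2, the gap junction protein connexin 26, was at 12.9 and 48.3 CPM in clone 7, 9.75 and 10.5 CPM in clone 21, and 38.6 and 16.4 CPM in clone 4. Its ratios were 1.90, 0.10 and -1.23 in clones 7, 21 and 4, so the 3 clones differed in direction or size. Pdlim2, a PDZ and LIM protein of the actin cytoskeleton, had 1.95 in clone 7 and 0.90 in clone 21.

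Toward clone 21, Kctd12, an auxiliary subunit of GABA-B receptors, stood at 7.13 and 25 CPM in Flp and Cre, a ratio of 1.80, against 1.06 in clone 7. Ogdhl, a relative of the oxoglutarate dehydrogenase of the citric acid cycle, had 1.70 and 0.87 in clones 21 and 7, Il17rd, an inhibitor of FGF signalling, had 1.48 and 0.46, and the growth factor Fgf9 had 1.46 and 0.40. These last 3 were chosen after their values were seen. In Il17rd and Ogdhl the Flp library of clone 21 was the lowest of the 6, at 44.6 and 52.6 CPM.

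The members with the lowest ratios were few and mostly of low level. Slc22a17, the receptor for lipocalin 2 in renal tubule (chromosome 14, 54906304 to 54913132), was at 7.13 CPM in Flp and 7.44 CPM in Cre of clone 7, 9.98 and 3.24 CPM in clone 21, and 3.27 and 2.93 CPM in clone 4. Its ratio of -1.60 in clone 21 (counting error 0.15) was the lowest of the 286 there. Slc7a7, a light chain of the cationic amino acid exporter, was at 4.15 and 3.67 CPM in clone 7, 4.76 and 3.49 CPM in clone 21, and 15.4 and 8.75 CPM in clone 4. It was the only member with a negative ratio in all 3 clones, at -0.18, -0.44 and -0.81, and its exons overlap those of Oxa1l.

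Ratios of at least 0.4 in size but of opposite sign in clones 7 and 21 were found in 4 members, against 2.73% of genes outside the stretch. Ercc6, the chromatin remodeller of transcription-coupled DNA repair that is mutated in Cockayne syndrome, was at 181 and 126 CPM in Flp and Cre of clone 7, 107 and 170 CPM in clone 21, and 86.0 and 117 CPM in clone 4. The Flp library of clone 7 was its highest. Xkr6, a relative of phospholipid scramblases, was at 11.1 and 5.48 CPM in clone 7, 6.26 and 9.09 CPM in clone 21, and 4.76 and 7.31 CPM in clone 4. Lcp1, the actin bundler L-plastin, went the other way, at 23.1 and 43.1 CPM in clone 7 and 42.7 and 31.9 CPM in clone 21. For Xkr6 the mean in the authors' deposited table was 43.6, against a mean count of 272 in the count files, so its level depends on the source.

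The other low members were Rpgrip1, a ciliary scaffold whose exons overlap those of Supt16, at 0.01 and 0.48 in clones 7 and 21, Ebpl, a relative of the sterol isomerase, at -0.07 and 0.44, the transcription factor Zic2 at -0.34 and 0.49, and the zinc and iron carrier Slc39a14 at 0.48 and 0.18. Slc39a14 had more reads than the rest, with 88.6 and 124 CPM in Flp and Cre of clone 7, 110 and 125 CPM in clone 21, and 90.6 and 121 CPM in clone 4. Its 3 Cre libraries lay within 121 to 125 CPM, and its ratio in clone 4 was 0.42, between those of clones 21 and 7.

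In clone 4, 231 members had a ratio within 0.4 of 0. A ratio of at least 0.4 was found in 38 members (13.3%), against 8.32% outside the stretch, and one of -0.4 or less in 17 members (5.94%), against 10.8%. Above 0 in all 3 clones were 176 members (61.5%), against 13% outside. This gap largely reflects the choice of the stretch by clones 7 and 21. In clone 4 alone, a ratio above 0 was found in 181 members (63.3%), against 44.1% outside. The highest after Ripk3 were Sh2d4b and Abcc4. Sh2d4b, an SH2 domain adaptor, was at 1.33 and 5.13 CPM in Flp and Cre of clone 4, and Abcc4, an exporter of cyclic nucleotides and organic anions in the tubule, at 13.8 and 47.1 CPM. The Flp library of clone 4 was the lowest of the 6 for both. Lowest in clone 4 were Gjb2, Zic2 at -1.08 and Dpysl2, a microtubule regulator of the collapsin response, at -0.86. In clones 7 and 21 Dpysl2 had 0.66 and 0.00.

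By function, 225 of the 286 members fell on 10 lists of gene roles. Housekeeping lists followed the region most evenly. Of 32 members for RNA processing, transcription machinery and ribosome assembly, 29 were in the regional range (medians 0.87 and 0.75 in clones 7 and 21), and of 24 for proteasome, ubiquitin and NEDD8, 21 were (0.88 and 0.85). All 6 nuclear transport members were in the range, among them the importin Ipo5, at 139 and 280 CPM in Flp and Cre of clone 7, 157 and 241 CPM in clone 21, and 161 and 159 CPM in clone 4. The RNA-binding protein Acin1 had ratios of 0.76 and 0.63, and the ubiquitin ligase Trim35 had 1.03 and 0.94. Over all 286 members the range held 68.2%.

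Of 35 members for mitochondria and metabolism, 25 were in the range (medians 0.92 and 0.70), of 33 for the secretory and lysosomal pathway 25 (0.73 and 0.78), of 25 chromatin and transcription factors 17 (0.84 and 0.86) and of 27 signalling genes 17 (0.70 and 0.93). Of the 27 signalling genes, 9 exceeded 1.2 in clone 21, against 28 of all 286 members, and 2 did in clone 7, against 40 of 286. Of 16 adhesion, matrix and cytoskeletal genes, 6 were in the range, with values from -0.42 to 1.26 in clone 21 and from 0.50 to 2 in clone 7. Of the 6 transporters and channels, 1 was in the range, and the medians were 0.55 and 0.21.

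**Figure D4:**
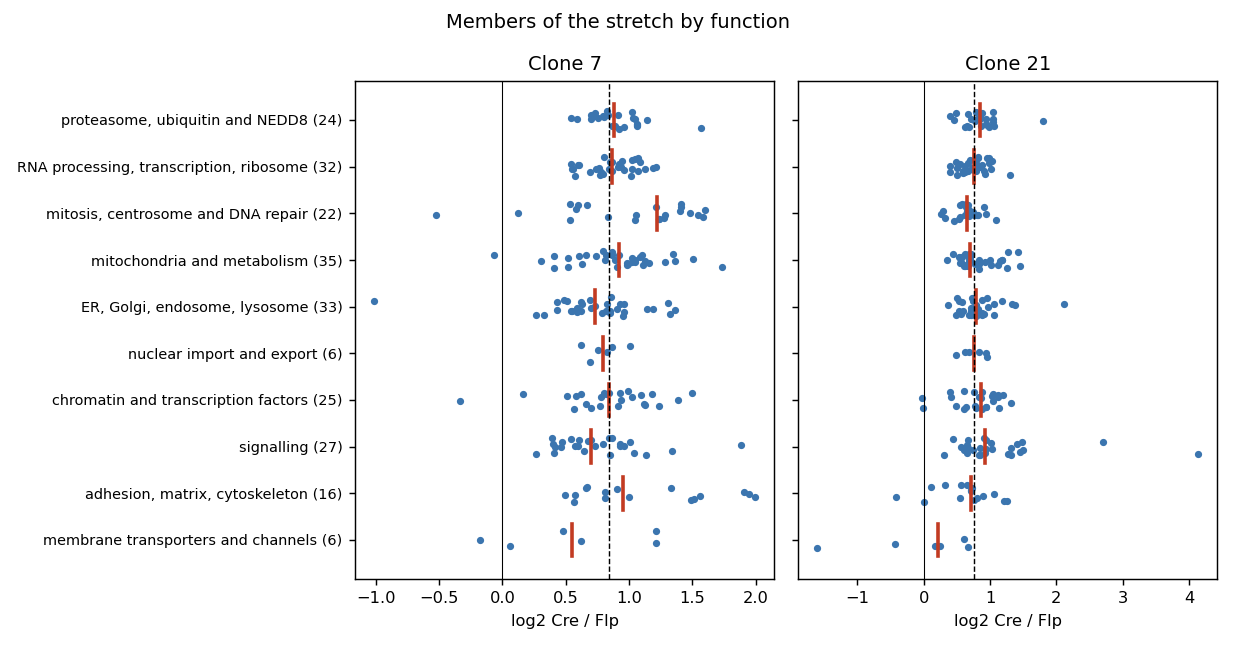
Log2 ratio of Cre to Flp (x axis) in clones 7 and 21 for the members on each of 10 lists (y axis, number of members in brackets). Each point is a gene, the red bar is the median of the list and the dashed line the median of all 286 members, 0.84 in clone 7 and 0.76 in clone 21. The list medians farthest from the dashed line are those of mitosis, at 1.22 in clone 7, and of transporters, at 0.55 in clone 7 and 0.21 in clone 21.

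Mitosis, centrosome and DNA repair genes stood higher in clone 7, with a median ratio of 1.22, than in clone 21, with 0.65, and 8 of the 22 were in the regional range. The larger ratio was in clone 7 for 17 of the 22, against 152 of all 286 members. In clone 7, 12 of the 22 exceeded 1.2, against 40 of all 286 members, and in clone 21 none did, against 28 of 286. Esco2, which acetylates cohesin, was at 7.5 and 22.8 CPM in Flp and Cre of clone 7, 13.1 and 17.9 CPM in clone 21, and 6.78 and 8.20 CPM in clone 4. Wdhd1, a replication factor, had ratios of 1.59 and 0.69 in clones 7 and 21, Diaph3, a formin of cytokinesis, 1.54 and 0.80, Cdca2, a phosphatase anchor of mitotic chromatin, 1.48 and 0.26, and the spindle protein Dlgap5 1.41 and 0.63. These 5 were chosen after their values were seen.

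Mitotic genes on other chromosomes differed between the clones as well. Over 20 of them, such as Mki67, Top2a and Ccnb1, also chosen after values were seen, the median ratio was 0.61 in clone 7 (range 0.24 to 0.76), -0.37 in clone 21 (-0.96 to -0.18) and -0.42 in clone 4 (-0.65 to 0.12). The part of this difference in the ratios of the members was not tested. In bulk RNA, more dividing cells and more RNA of these genes per cell cannot be told apart. For the 264 members off this list the medians were 0.83 and 0.78 in clones 7 and 21.

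The members that belong to protein complexes were compared, by RNA alone, with partner subunits encoded elsewhere. Of 20 complexes listed, 18 had a member, with 21 subunits in the stretch and 109 expressed partners outside. In clone 7 the ratio of every one of the 21 subunits exceeded that of all its partners, and the same was found in clone 21. The closest case was Pbrm1, of the PBAF remodeller, in clone 7, at 0.772 against 0.769 in its highest partner, a difference too small to order them. In clone 4 the ratio exceeded that of all partners for 9 of 21. The median difference between a subunit and the median of its partners was 0.87, 0.82 and 0.09 in clones 7, 21 and 4. The partners had median ratios of 0.06, -0.05 and -0.09 in clones 7, 21 and 4. In both clones 7 and 21 a ratio of at least 0.4 was found in 1 of the 109 partners, Pccb.

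**Figure D5:**
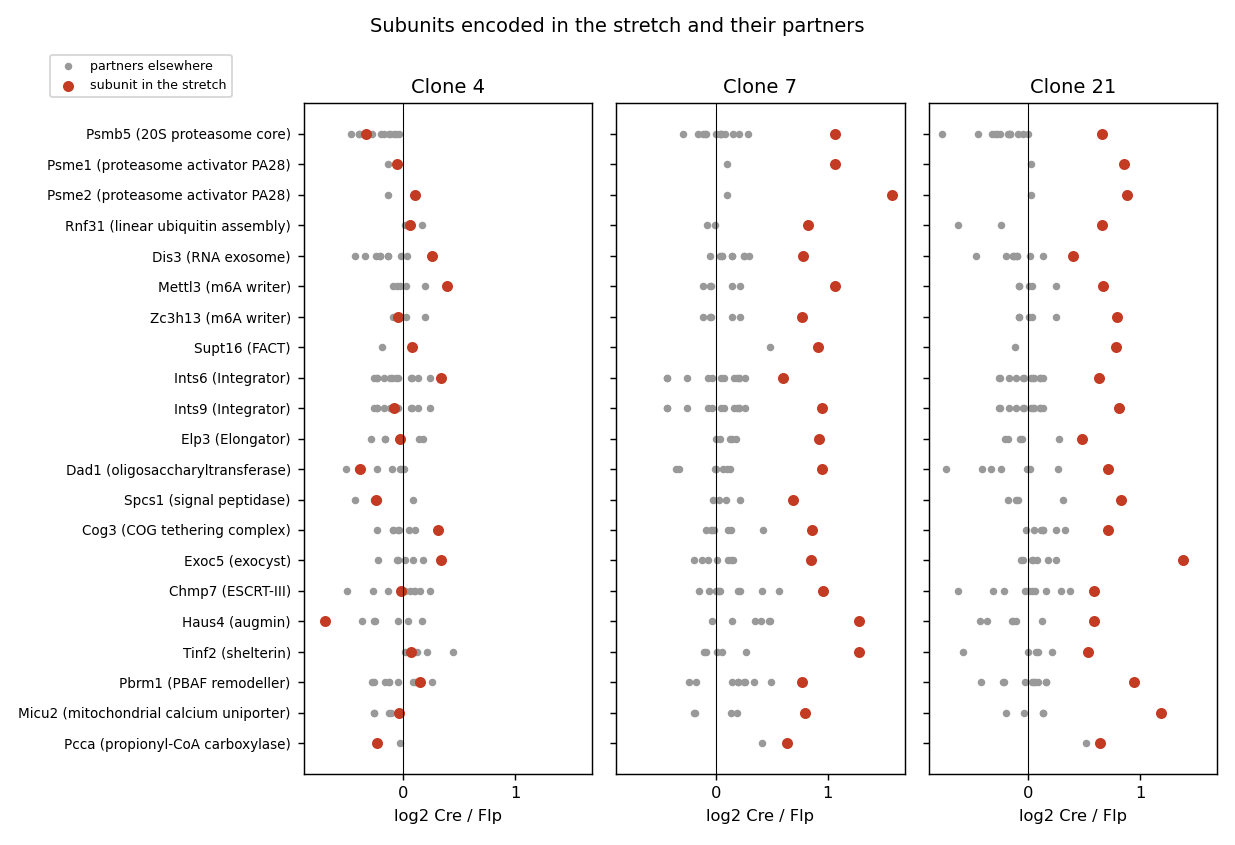
Log2 ratio of Cre to Flp (x axis) in clones 4, 7 and 21 for 21 subunits encoded in the stretch (red) and for their expressed partners encoded elsewhere (grey), 1 row per subunit with its complex in brackets. In clones 7 and 21 each red point lies to the right of all grey points of its row, and in clone 4 it does so in 9 rows. The stretch was chosen for its ratios in clones 7 and 21.

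Psmb5, the chymotrypsin-like subunit of the 20S proteasome core, was at 28.9 and 60.3 CPM in Flp and Cre of clone 7, 27.5 and 43.6 CPM in clone 21, and 33.1 and 26.2 CPM in clone 4. Its ratio was 1.06 in clone 7, where its 13 partners lay between -0.29 and 0.29, and 0.66 in clone 21, where they lay between -0.77 and 0.00. Psme1 and Psme2, subunits of the PA28 activator, had 1.06 and 1.57 in clone 7 and 0.85 and 0.88 in clone 21. Their relative Psme3, encoded elsewhere, had 0.10 and 0.02 in clones 7 and 21. Psme3 was counted above as their only partner, though it forms a ring of its own. For Cog3 the 7 other COG subunits lay between -0.09 and 0.42 in clone 7 and between -0.02 and 0.33 in clone 21.

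The smallest distances to the partners' median were in Pcca, the alpha subunit of the mitochondrial propionyl-CoA carboxylase, with 0.63 and 0.64 in clones 7 and 21 against 0.41 and 0.51 in its partner Pccb. Supt16, which forms the histone chaperone FACT with a single partner, had 0.91 in clone 7 against 0.49 in that partner, and 0.78 against -0.12 in clone 21. Haus4, of the augmin complex of the mitotic spindle, had 1.28 in clone 7, where its 6 partners had a median of 0.38, and 0.58 in clone 21, where they had -0.15. The m6A writer subunits Mettl3 and Zc3h13 had 1.07 and 0.77 in clone 7 and 0.67 and 0.79 in clone 21, while their 5 partners lay between -0.11 and 0.24 in both. Micu2 of the mitochondrial calcium uniporter, at 0.80 and 1.19, and Exoc5 of the exocyst, at 0.85 and 1.38, had larger ratios in clone 21. Exons of Psmb5, Psme1, Exoc5, Supt16, Mettl3, Pcca and Pbrm1, among others, overlap those of other genes.

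The spread of the ratios was wider among members of low level, while their centre was similar. In the 72 members with the lowest CPM in clone 4 (3.1 to 12.3 CPM), the SD was 0.50 in clone 7 and 0.65 in clone 21. The value for clone 21 rests heavily on Ripk3, at 4.14, and Slc22a17, at -1.60, the extremes of all members there. In the 72 highest (54 to 758 CPM) it was 0.34 and 0.27. The medians were 0.89 and 0.81 in the lowest 72 and 0.82 and 0.74 in the highest 72. In the regional range were 36 of the lowest 72 members and 57 of the highest 72. The median counting error in the lowest 72 was 0.11 in clone 7 and 0.12 in clone 21, below those SDs. By exonic length, the longest 72 had a median of 0.69 in clone 7 against 0.90 in the shortest 72, and 0.78 against 0.72 in clone 21.

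Along the stretch, the first 10 Mb differed between the clones. Its 46 members had a median ratio of 0.61 in clone 7 and 0.89 in clone 21, while the 83 members from 20 to 30 Mb had 0.93 and 0.75. From 70 to 80 Mb, 3 of 18 members were above the range, Tbc1d4, Lmo7 and Spry2. In the last bin, from 90 to 100 Mb, the 20 members had 0.66 and 0.64, with 16 in the range. Bins from 60 to 70 and 80 to 90 Mb held 2 members each.

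The first members after the bound were Slmap, a tail-anchored membrane protein, with 0.67 and 1.06 in clones 7 and 21, Dennd6a, an activator of Rab GTPases, with 0.60 and 0.80, and the small GTPase Arf4 with 0.63 and 0.96. The last 3 expressed genes before it were Zmiz1, with 0.80 in clone 7 and 0.19 in clone 21, Ppif, with 0.38 and -0.17, and Anxa11, with 0.83 and 0.07. In clone 7, Zmiz1 and Anxa11 thus lay near the members' median and Ppif below the regional range, while in clone 21 all 3 were below that range. The 3 genes ahead of them, Dlg5, Polr3a and Rps24, had -1, -0.95 and -0.96 in clone 7 and -0.07, -0.09 and -0.43 in clone 21. Over the 59 expressed genes of chromosome 14 before the bound, the medians were 0.18, -0.27 and -0.03 in clones 4, 7 and 21. At the level bound, Mtrf1, Dgkh and Trim13 were just inside at 5.05 to 5.47 CPM, and Erc2, Emc9 and Gzme just outside at 4.41 to 4.96 CPM. Of these, Erc2 had -1.87 in clone 7 and 1.19 in clone 21, and Emc9 had 0.46 and 3.12.

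Some members are precursors of small RNAs. Mir17hg (chromosome 14, 115042879 to 115046727) is the host transcript of the miR-17-92 cluster, a set of microRNAs that promote proliferation, and miR-17 is known to bind the transcripts of Pkd1 and Pkd2. Dleu2 (61602839 to 61682373) hosts miR-16-1. In all, 18 microRNA hairpins lay on the strand of 12 members. A selection of the mature sequences of these 2 hosts is shown because members of the cluster share seeds, with 1 arm of each hairpin. They come from RefSeq (GRCm38.p6), 5′ to 3′, with the seed (bases 2 to 8) in capitals.
miR-17-5p: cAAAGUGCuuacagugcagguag
miR-20a-5p: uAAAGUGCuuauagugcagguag
miR-18a-5p: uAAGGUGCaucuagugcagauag
miR-19a-3p: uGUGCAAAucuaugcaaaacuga
miR-19b-3p: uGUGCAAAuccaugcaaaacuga
miR-92a-3p: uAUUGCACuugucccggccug
miR-16-5p: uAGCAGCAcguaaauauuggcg
miR-17-5p and miR-20a-5p share 1 seed, and miR-19a-3p and miR-19b-3p share another. The libraries measured the host transcripts and not the mature microRNAs. Mir17hg was at 6.26 CPM in Flp and 9.46 CPM in Cre of clone 7, 9.15 and 10.6 CPM in clone 21, and 2.82 and 6 CPM in clone 4. Its largest ratio, 1.07, was in clone 4, and those in clones 7 and 21 were 0.59 and 0.21. Dleu2 was at 9.69 and 14.7 CPM in clone 7, 11.0 and 17.8 CPM in clone 21, and 4.44 and 9.57 CPM in clone 4, with ratios of 0.60, 0.69 and 1.1. For both hosts the Flp library of clone 4 was the lowest of the 6. The mean of Dleu2 in the authors' deposited table was 37.3, against a mean count of 412 in the count files. Mir17hg and Dleu2 were chosen after their values were seen.

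In the fit over all 15355 genes with clone as a block, which leaves 2 residual degrees of freedom, edgeR's quasi-likelihood test with Benjamini-Hochberg adjustment called 0 genes (0%), and so none of the members, whose lowest adjusted p was 0.607. An unadjusted p under 0.05 was found for 172 members, against 1047 genes or 6.82% of all tested. DESeq2 with the same block called 40 members, all higher in Cre, where it called 0.638% of all genes higher. Among these were Tbc1d4 (adjusted p = 0.0368), Lmo7 (0.028), Slitrk1 (0.00947), Sorbs3 (0.0305), Tmem260 (0.0456), Ripk3 (0.00824), Sh2d4b (0.0368), Abcc4 (0.0196) and Exoc5 (0.0255). limma-voom with the block called 0 genes, with 183 members at an unadjusted p under 0.05. edgeR without a filter on low counts called 44 members, against 0.435% of all genes called higher. The same contrast chose the stretch, so the calls on members describe them and are not evidence for the stretch.

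The fitted log2 fold change of the 286 members, which averages the 3 clones, had a median of 0.57 against 0.00 over all genes tested. For Lmo7 it was 1.13 (SE 0.35, edgeR adjusted p = 0.646), for Cog3 0.63 (SE 0.15, edgeR adjusted p = 0.607) and for Slc22a17 -0.57 (SE 0.40, edgeR adjusted p = 0.886). Of the members, 275 were matched in the authors' deposited table, where 268 had a positive log2 fold change and the median was 0.44, against 0.00 over all genes. For 10 members, among them Xkr6, Dleu2, Sh2d4b and Kctd12, the mean in the authors' deposited table differed over 2-fold from the mean count. That table called 49 of the 275 matched members higher in Cre and 0 lower at an adjusted p of 0.05, where it called 0.817% of its genes higher. This excess, too, follows from how the stretch was chosen. In the authors' deposited table Tbc1d4 had a log2 fold change of 0.80 (adjusted p = 0.0159), Lmo7 0.76 (0.0182), Slitrk1 0.80 (0.00837) and Cog3 0.53 (0.0412). For Lmo7 and Cog3, and for the median of the members, these values were below those fitted here. The sizes of the 2 sets of fold changes are therefore not a like measure.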

How the data were processed

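RNA-seq libraries of 3 Cre and 3 Flp cultures were used. The values the authors deposited for each library are counts per gene that were not normalized. The submitters' processing notes name STAR 2.5.2b-2, featureCounts 1.6.0.3, DESeq2 2.11.40.1, Trim Galore 0.4.3.0 and FastQC 0.67, and the builds GRCm38 and mm10. Whether strand was used in counting, the read layout and the annotation release are not given, and overlapping genes may hold reads of each other. A second table the authors deposited compares Cre with Flp and gives a mean of normalized counts (a signal), a log2 fold change, a Wald score, and raw and adjusted p-values. The score was not used.

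Gene names, positions and exon overlaps came from GENCODE M21 on GRCm38, which held 49412 of 49671 identifiers. Exon overlaps are mentioned for some genes only. In R 4.3.3 with edgeR 4.0.16, genes were filtered by filterByExpr, TMM factors computed, and a quasi-likelihood test fitted with clone as a block. Benjamini-Hochberg adjusted p under 0.05 was the threshold. CPM use TMM-scaled totals. For log2 ratios within a clone the prior count was 2. Counting errors are Poisson. Alternatives used DESeq2 1.42.0 and limma 3.58.1, other normalizations and filters, other class bounds, and leaving out each clone. Both count models were first tested on simulated data of 15355 genes, with 50 genes changed at each fold size. edgeR recovered 18% of genes changed 1.5-fold, 42% changed 2-fold and 94% changed 8-fold, with 27 false calls. DESeq2 recovered 34%, 52% and 94% of them, with 42 false calls. Figures were drawn with matplotlib 3.10.9.

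The block follows the series' design. Within clones 4, 7 and 21 the Cre and Flp deviations from their group means had correlations of 0.26, 0.15 and 0.35, against -0.34 to 0.04 between clones. No 2 libraries of a group agreed within sampling noise (chi-square per degree of freedom of at least 46.9).

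The members, lists, complexes and class bounds were chosen with earlier results of these data known. Named genes were the 8 members with most reads, the 10 highest and 10 lowest by mean ratio of clones 7 and 21, the 5 nearest both medians, the 3 highest and lowest in clone 4, the member of each list with most reads, the complex subunits, and 3 genes on each side of either bound. Predicted genes were counted and not named, and genes named outside the rule are marked in the text. P-values reflect the spread among these 3 pairs of libraries and no others, with each gene's spread estimated in part from that of other genes. Values of some single genes are not reported here.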

Additional observations from a re-analysis of the deposited data

Results flagged for a closer look

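In Ercc6, Xkr6 and Lcp1 the ratio of Cre to Flp had opposite signs in clones 7 and 21, with at least 0.4 on the log2 scale in each. The difference between the clones was not tested, since each clone has 1 library per group. The ratio of clone 21 minus that of clone 7 was 1.19 for Ercc6, which was at -0.52 in clone 7 and 0.67 in clone 21. It was 1.54 for Xkr6, at -1.01 and 0.53. For Lcp1 it was -1.32, at 0.90 in clone 7 and -0.42 in clone 21. Exons of Xkr6 and Lcp1 overlap those of other genes.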

How the results depend on the processing

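edgeR called 0 genes and 0 members. DESeq2 with the clone block called 196 genes and 40 members, and edgeR with all low genes kept called 224 genes and 44 members. Without the replicate block, edgeR called 0 genes and DESeq2 called 14, none a member, so the DESeq2 calls on members depended on the pairing of clones. Leaving out clone 4, 7 or 21, edgeR called 0 genes and 0 members in each case, and the median fitted log2 fold change of the members ranged from 0.45 (without clone 7) to 0.81 (without clone 4). Under 7 other settings the median ratio of the members stayed at 0.06 to 0.13 in clone 4, 0.83 to 0.87 in clone 7 and 0.76 to 0.78 in clone 21.

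In the regional range were 195 members, and 104 of the 162 without overlapping exons. Judged by clone 21 alone the count was 236 and by clone 7 alone 224. Above it were 8 members, 4 with bounds of 0.3 and 1.3, 17 with bounds of 0.5 and 1.1, 28 by clone 21 alone and 40 by clone 7 alone. Flat were 0 members, 7 with bounds of 0.5 and 1.1, 2 with a minimum of 1 CPM, and 19 by either clone alone. Leaving out 10 members whose deposited mean differs over 2-fold from the counts, chosen after seeing the data, left 190 in the range, and centring ratios on genes outside the stretch gave 197. With 1 library per group and clone, a ratio has counting error and no replicate error, and at the lowest levels counting error reached 0.36.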
